A study of Mus musculus with 13 samples.

Results

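Red blood cells and neutrophils reach a brain sample with the blood in its vessels, and 10 genes of these cells were followed here over every array of a creatine-feeding study. Hba-a1, Hbb-b1, Hbb-b2, Alas2 and Slc4a1 stand for red blood cells, and S100a8, S100a9, Camp, Ngp and Lcn2 for neutrophils. Members were all probe sets whose single gene symbol, current or older, was 1 of the 10. The rule gave 12 probe sets of 45037 tested and 9 of the 10 genes, out of 18193 genes with a probe set of their own. No probe set listed Hbb-b1 alone.

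Each mouse gave total RNA of a brain hemisphere for 1 array. The creatine-fed group held 6 male C3HeB/FeJ mice, whose pellets contained 1% creatine for 6 months. The untreated group held 7 males of the same strain on pellets of equal calories without creatine. Feeding began at 10 to 12 weeks of age, and no genetic change is named for either group. Creatine buffers the ATP supply of cells. The labels do not say whether blood was flushed from the vessels before the brains were taken. The genes below were therefore read as blood cell RNA in tissue that may still have held blood. How much of their signal came from other cells of the sample was not tested. In such a sample fewer cells of a type and less RNA per cell cannot be told apart.

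Circulating red blood cells of mammals have no nucleus, and the young ones, the reticulocytes, still carry mRNA for a few proteins. Haemoglobin is built from alpha globin (Hba-a1 and the near-identical Hba-a2) and adult beta globin (Hbb-b1 and Hbb-b2), with haem. The first step of haem synthesis in red cell precursors is run by Alas2. Slc4a1 is band 3, the anion exchanger of the red cell membrane. Neutrophils carry S100a8 and S100a9, which pair as calprotectin, in large amounts in the cytosol. Camp (the cathelicidin antimicrobial peptide), Ngp (neutrophilic granule protein) and Lcn2 (lipocalin 2, which binds bacterial siderophores) are granule proteins whose mRNA is made mainly by neutrophil precursors in marrow. Lcn2 is also made by reactive astrocytes in the brain.

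Promoter sequence from RefSeq (GRCm38.p6) was held for 7 of the 10 genes and is shown for 5 of them as examples of each cell type (the alpha globin gene and the haem enzyme, the calprotectin pair and a granule gene), as the 250 bases before the start of the gene on its own strand, 5′ to 3′. In Hba-a1 and Alas2, capitals mark GATAA and CACCC on either strand, letters bound by GATA and Krüppel-like factors of red cell precursors. In S100a8, S100a9 and Ngp, capitals mark TTGCNNAA and GAGGAA on either strand, letters bound by C/EBP factors and by PU.1 of myeloid cells.

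Hba-a1, chr11:32283422-32283671, + strand: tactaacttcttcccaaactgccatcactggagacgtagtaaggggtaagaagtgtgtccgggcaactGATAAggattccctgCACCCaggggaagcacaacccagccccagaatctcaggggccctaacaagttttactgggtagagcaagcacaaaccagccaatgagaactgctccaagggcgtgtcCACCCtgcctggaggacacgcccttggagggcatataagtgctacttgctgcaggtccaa
Alas2, chrX:150547167-150547416, + strand: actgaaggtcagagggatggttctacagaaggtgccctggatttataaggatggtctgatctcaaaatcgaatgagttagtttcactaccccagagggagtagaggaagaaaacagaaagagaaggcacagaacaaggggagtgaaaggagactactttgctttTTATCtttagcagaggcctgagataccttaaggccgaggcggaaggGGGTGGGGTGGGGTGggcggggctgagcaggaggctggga
S100a8, chr3:90668821-90669070, + strand: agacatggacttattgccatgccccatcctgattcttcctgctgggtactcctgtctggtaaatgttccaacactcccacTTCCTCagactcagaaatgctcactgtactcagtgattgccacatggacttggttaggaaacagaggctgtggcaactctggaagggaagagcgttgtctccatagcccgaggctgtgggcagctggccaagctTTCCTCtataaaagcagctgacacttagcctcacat
S100a9, chr3:90695722-90695971, - strand: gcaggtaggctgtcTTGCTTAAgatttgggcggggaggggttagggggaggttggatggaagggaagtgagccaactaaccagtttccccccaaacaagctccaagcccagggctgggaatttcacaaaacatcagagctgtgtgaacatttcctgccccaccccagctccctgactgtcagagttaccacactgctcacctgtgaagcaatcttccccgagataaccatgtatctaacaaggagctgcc
Ngp, chr9:110419558-110419807, + strand: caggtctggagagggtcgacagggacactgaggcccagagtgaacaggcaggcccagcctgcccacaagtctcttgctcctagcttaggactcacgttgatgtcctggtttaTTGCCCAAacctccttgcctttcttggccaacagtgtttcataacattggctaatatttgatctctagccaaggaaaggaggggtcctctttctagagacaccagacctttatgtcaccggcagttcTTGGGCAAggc

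GATAA was found 1 time in each of Hba-a1 and Alas2, against 22.6% of 32851 windows of this length with at least 1 match. CACCC was found 2 times in Hba-a1 and 3 times in Alas2, where the matches adjoin without overlap, and in 52.0% of all windows. TTGCNNAA was found 1 time in S100a9 and 2 times in Ngp, against 9.56% of all windows, and not in S100a8. GAGGAA was found 2 times in S100a8, against 23.3%, and in neither S100a9 nor Ngp. S100a8 and S100a9 lie next to each other on chromosome 3. The letters were not kept to one cell type: Alas2 also held GAGGAA 1 time, and S100a9 held GATAA and CACCC 1 time each, not in capitals. Of the neutrophil genes not shown, Camp held neither TTGCNNAA nor GAGGAA and held CACCC 2 times. Lcn2 held TTGCNNAA and GAGGAA 1 time each. A match describes these letters only.

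Intensities were on the linear scale of the deposited table, with array medians between 37 and 45. The brain markers Gfap and Cx3cr1 were well above the medians. Gfap of astrocytes averaged 579 ± 81.8 in creatine-fed and 617 ± 88.4 in untreated mice (SD, n = 6 and 7), and Cx3cr1 of microglia 217 ± 11.2 and 201 ± 16.2. Of the marker lists used below, 3 of 14 reactive astrocyte and 0 of 11 microglial markers lay under the array median in every mouse. The 3′/5′ ratio of the beta-actin control probe sets ran from 1.42 to 1.68 in creatine-fed and from 1.53 to 1.72 in untreated mice. That of the Gapdh control probe sets ran from 0.782 to 0.878 in creatine-fed and from 0.776 to 0.837 in untreated mice. Its lowest values were 0.776 in untreated mouse 5 and 0.779 in untreated mouse 7, with 0.782 in creatine-fed mouse 3 next. Across probe sets, pairs of arrays had r from 0.975 to 0.987.

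Red blood cell genes differed several-fold from mouse to mouse, with creatine-fed and untreated mice mixed. Alas2, the red cell form of 5-aminolevulinate synthase, had intensities of 41 at the lowest, 79 at the median and 163 at the highest in creatine-fed mice, against 49, 87 and 117 in untreated mice. The highest mouse (creatine-fed 6) read 3.98 times the lowest (creatine-fed 1), and the untreated values lay within the creatine-fed range. On log2(intensity + 16), Alas2 differed by 0.12 ± 0.26 (SE; creatine-fed minus untreated, limma adjusted p = 0.901). Within groups its standard deviation on that scale was 0.52, and 1.24% of all probe sets had a larger one.

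Hbb-b2, an adult beta globin gene, has a pair of probe sets of its own, and the groups overlapped at both. These probe sets ordered the mice differently: counted from the highest mouse, untreated mouse 5 was at place 10 at 1427866_x_at and place 2 at 1427865_at. At 1427866_x_at Hbb-b2 read 27 at the lowest, 39 at the median and 68 at the highest in creatine-fed mice, against 17, 39 and 66 in untreated mice. At 1427865_at it read 28, 42 and 62 in creatine-fed mice, against 8, 43 and 57 in untreated mice. These groups overlapped almost fully, with log2 differences of 0.04 ± 0.22 and 0.16 ± 0.22 (limma adjusted p = 0.970 and 0.823). The suffix x of the first marks probes that can match other transcripts.

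Slc4a1 and Hba-a1 were dim at every probe set of their own. Slc4a1 at 1416464_at read 7 at the lowest, 14 at the median and 18 at the highest in creatine-fed mice, against 14, 20 and 30 in untreated mice. Every creatine-fed mouse was under the mean of the untreated mice (6 of 6), though the groups overlapped between 14 and 18, and the log2 difference was -0.34 ± 0.11 (limma unadjusted p = 0.00725, adjusted p = 0.253). The other probe sets of Slc4a1 read 1 to 10 in creatine-fed and 1 to 15 in untreated mice, with differences of -0.02 and -0.09. Hba-a1 at 1453574_at read 1 to 12 in creatine-fed and 2 to 27 in untreated mice (-0.32 ± 0.21, adjusted p = 0.576). All 4 probe sets lay under the array median in all 13 mice, as did 41.2% of all probe sets tested.

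The globin signal of the arrays lay in 4 probe sets that list several genes and so fall outside the rule. Of these, 3 list Hba-a1 with Hba-a2, and 1 lists Hbb-b1 and Hbb-b2 with Hbb-bt and Hbb-bs, the globin genes of another mouse haplotype. Alpha globin at 1417714_x_at read 3980 to 8953 in creatine-fed mice, against 3717 to 7336 in untreated mice. Beta globin at 1417184_s_at read 4169, 5488 and 8793 in creatine-fed mice, against 4605, 7202 and 7878 in untreated mice. All 4 were highest in creatine-fed mouse 6, and creatine-fed mouse 1 and untreated mouse 1 held the 2 lowest places in each. None passed the test across all probe sets, the beta globin difference being -0.18 ± 0.17 (limma adjusted p = 0.729). Over the 13 mice the highest beta globin value was 2.11 times the lowest.

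**Figure D1:**
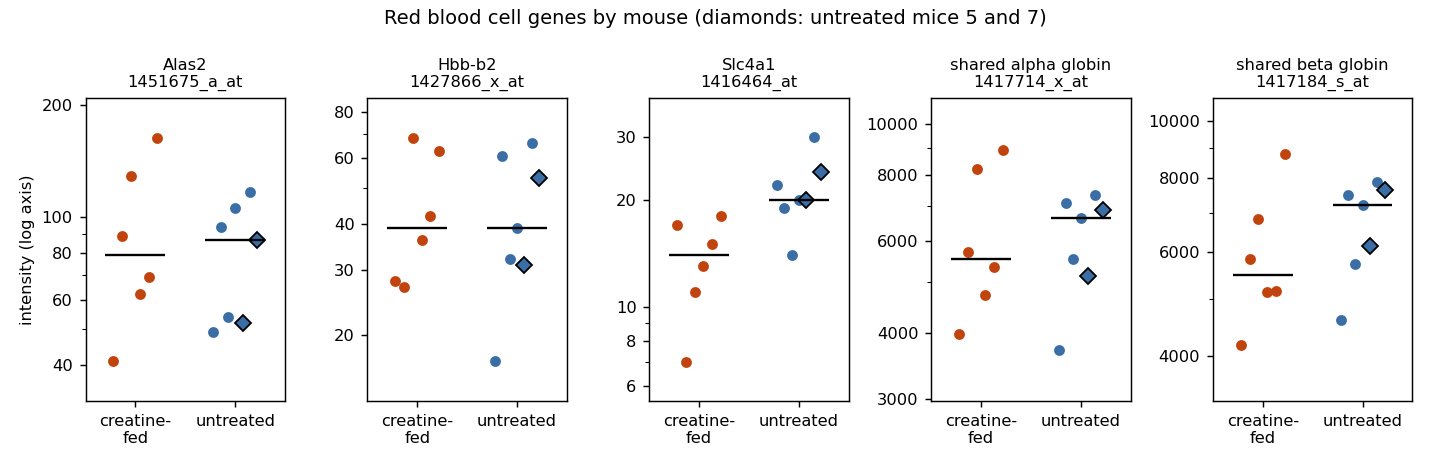
Intensity (log axis) of 3 red blood cell genes and of an alpha and a beta globin probe set that list several genes, 1 point per mouse, creatine-fed mice left of untreated mice, with horizontal bars at the group medians. For Alas2 the creatine-fed mice spread from 41 to 163, around the untreated range of 49 to 117.

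Neutrophil genes had lower means in creatine-fed mice at all 5 probe sets, with untreated mice 5 and 7 highest for every gene. S100a8 read 26 at the lowest, 39 at the median and 54 at the highest in creatine-fed mice, against 46, 72 and 251 in untreated mice. Untreated mouse 5 had 251 and untreated mouse 7 had 196, while the highest of the other 11 mice had 94. The untreated mean was above each of the 6 creatine-fed values, and the groups overlapped between 46 and 54. Means were 38.8 ± 10.3 (SD, n = 6) in creatine-fed and 111 ± 79.9 (SD, n = 7) in untreated mice, a log2 difference of -1.02 ± 0.31 (SE; limma unadjusted p = 0.00548, adjusted p = 0.238). Without untreated mice 5 and 7 the difference was -0.57 (adjusted p = 0.272).

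S100a9, the partner of S100a8, read 23 at the lowest, 27.5 at the median and 50 at the highest in creatine-fed mice, against 9, 50 and 177 in untreated mice. The untreated group held both the highest mouse, untreated 5, and the lowest, untreated 4. The log2 difference of -0.64 ± 0.37 (limma adjusted p = 0.535) shrank to -0.16 without untreated mice 5 and 7 (adjusted p = 0.874).

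The granule genes had the same 2 mice on top. Ngp read 16 at the lowest, 27 at the median and 47 at the highest in creatine-fed mice, against 17, 39 and 116 in untreated mice (log2 difference -0.54 ± 0.26, limma adjusted p = 0.449). Untreated mouse 5 had 116 and untreated mouse 7 had 73. Camp read 1, 8.5 and 20 in creatine-fed mice, against 1, 11 and 56 in untreated mice (-0.36 ± 0.35, adjusted p = 0.734).

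For Camp, untreated mouse 5 had 56 and untreated mouse 7 had 45, and the highest of the other 11 mice had 21. Lcn2 read 1, 10 and 18 in creatine-fed mice, against 5, 13 and 30 in untreated mice (-0.31 ± 0.20, adjusted p = 0.583), and stayed under the array median in all 13 mice. Without the same 2 mice the differences were -0.22 for Ngp, -0.12 for Lcn2 and 0.09 for Camp, whose sign turned. The cause of the high values in untreated mice 5 and 7 was not tested.

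**Figure D2:**
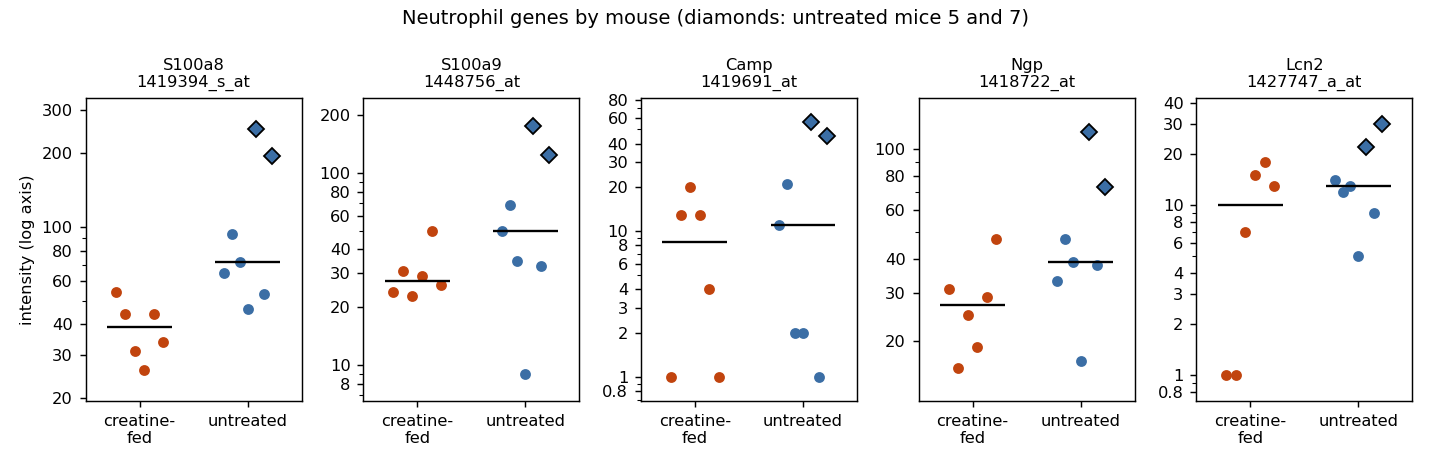
Intensity (log axis) of the 5 neutrophil genes, 1 point per mouse, creatine-fed mice left of untreated mice, with horizontal bars at the group medians. Untreated mice 5 and 7, drawn as diamonds, are the 2 highest mice at every gene, for S100a8 at 251 and 196.

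Of the 12 member probe sets, 0 passed at an adjusted p under 0.05 by limma, where 0.00888% of all probe sets did (4 of 45037; 0.00222% on the lower side), and 0 passed by the exact permutation test after adjustment (lowest adjusted p = 0.229). At an unadjusted p under 0.05 there were 2 by limma, S100a8 and Slc4a1 at 1416464_at, both lower in creatine-fed mice. Over the whole array 11.9% of probe sets reached that level, 7.7% on the lower and 4.17% on the higher side. The exact permutation test over all 1716 splits of 6 against 7 gave p = 0.00583 for S100a8 and 0.00874 for Slc4a1, 2-sided and unadjusted. No member had groups that did not overlap, which 0.56% of all probe sets had.

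Means were lower in creatine-fed mice at 9 of the 12 member probe sets, with a median log2 difference of -0.32, against 26013 of 45037 (57.8%) and a median of -0.03 for all probe sets. Among the 18566 probe sets under the array median in every mouse, 61.6% had lower means, and among the other 26471, 55.0%. The lower quartile of the arrays was 10 to 12 in creatine-fed and 12 to 13 in untreated mice. The part of this shift of dim probe sets in the members' differences was not tested.

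**Figure D3:**
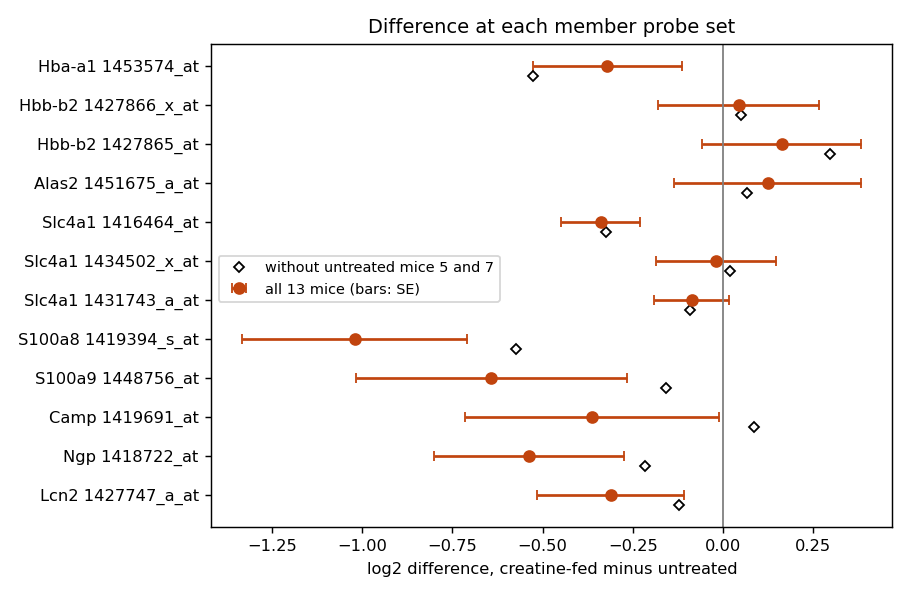
Log2 difference, creatine-fed minus untreated, at each of the 12 member probe sets (x axis), with bars of 1 SE, and the same without untreated mice 5 and 7 (open diamonds). S100a8 moves to -0.57 from the -1.02 of all 13 mice, and Camp crosses 0 to 0.09.

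The next comparison asked whether genes of a cell type were high in the same mice. Alas2 followed the globins. With alpha globin at 1417714_x_at, Alas2 had Pearson's r = 0.933 (permutation p = 2e-05, adjusted p = 0.00054) and Spearman's rho = 0.940 (adjusted p = 0.00072) over the 13 mice. The relation was r = 0.923 without the 2 mice farthest from the alpha globin median, 0.989 among creatine-fed mice and 0.869 among untreated mice. With the other 3 shared globin probe sets r was 0.861 to 0.892.

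Hbb-b2 at 1427866_x_at had r from 0.803 to 0.897 with the 4 shared globin probe sets. Its 4 relations and the 4 of Alas2 passed by Pearson and by Spearman after adjustment over the 36 relations computed. The 4 shared probe sets had r from 0.931 to 0.985 with each other, so the 4 relations of a gene are not separate evidence. The other probe set of Hbb-b2, 1427865_at, did not pass: r was 0.305 to 0.354 and rho 0.451 to 0.527 (permutation p adjusted over its 4 relations 0.325 by Pearson and 0.125 by Spearman). None of the 20 relations of the 5 neutrophil genes with the shared globin probe sets passed (r from -0.122 to 0.294). The dim Hba-a1 and Slc4a1 probe sets did not pass either, with r from 0.514 to 0.578 and from 0.0762 to 0.324.

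**Figure D4:**
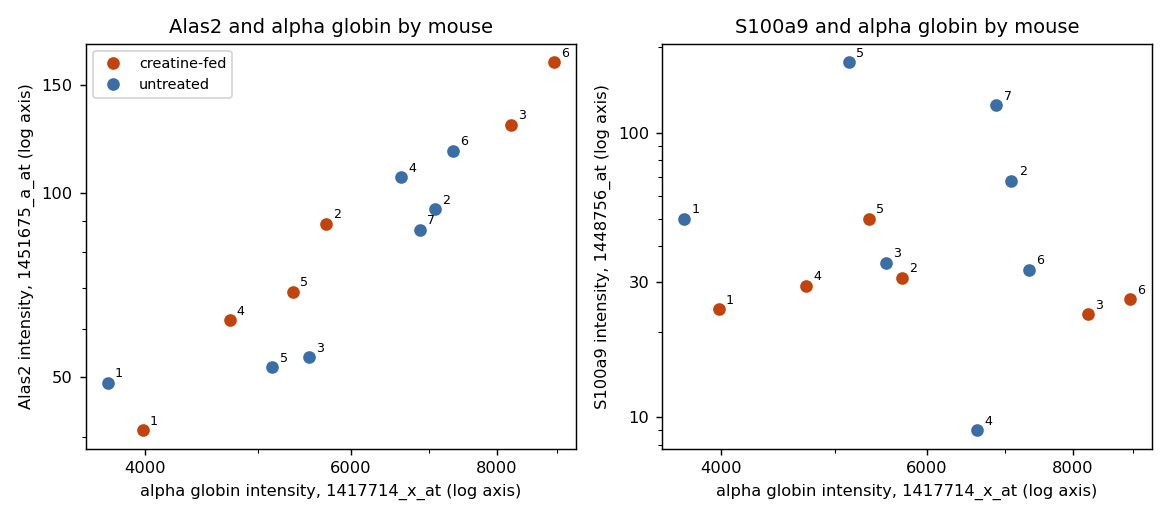
Alas2 (left) and S100a9 (right) intensity against alpha globin intensity at 1417714_x_at, all axes logarithmic, 1 point per mouse with its replicate number. Alas2 climbs with alpha globin (r = 0.933 on log2 values), while S100a9 shows no such line (r = -0.122), with untreated mice 5 and 7 at 5141 and 6878 of alpha globin, within the range of the other 11 mice.

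Among the members themselves 36 pairs were compared, each gene at its brightest probe set, with permutation p adjusted over the pairs. Of 6 red blood cell pairs, Hbb-b2 with Alas2 passed (r = 0.804, adjusted p = 0.0102; rho = 0.813, adjusted p = 0.0403), and r was 0.756 without the 2 mice farthest from the Hbb-b2 median. Of 10 neutrophil pairs, 7 passed by Pearson, led by S100a8 with S100a9 (r = 0.885, adjusted p = 0.00504), S100a8 with Ngp (0.865) and S100a9 with Ngp (0.860). None of the 10 passed by Spearman, where the lowest adjusted p was 0.0655 (rho = 0.729 for S100a8 with S100a9).

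The neutrophil relations rested on untreated mice 5 and 7, the 2 mice farthest from the median of S100a8, S100a9, Camp and Ngp alike. Without them r was 0.554 for S100a8 with S100a9, 0.530 for S100a8 with Ngp and 0.00876 for S100a8 with Camp. No pair of the 36 passed in those 11 mice, but Hbb-b2 with Alas2 kept r = 0.804 there (permutation adjusted p = 0.126). Among creatine-fed mice alone S100a8 and S100a9 had r = 0.217, against 0.947 among untreated mice. Of 20 pairs of a red blood cell with a neutrophil gene, 0 passed by Pearson or Spearman (at an unadjusted p under 0.05, 0 by Pearson, and Slc4a1 with S100a8 and with Ngp by Spearman), with a median r of -0.0954. On deviations from the group means 11 pairs passed, 3 of them across cell types and negative: Hba-a1 with S100a9 (r = -0.816, permutation adjusted p = 0.00516), S100a8 (-0.742, 0.0155) and Camp (-0.671, 0.0431). Hba-a1 read 27 or less in every mouse, and these relations were r = -0.366, -0.325 and -0.0356 among creatine-fed mice, against -0.922, -0.842 and -0.854 among untreated mice. Genes measured in the same RNA share its scaling and quality.

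**Figure D5:**
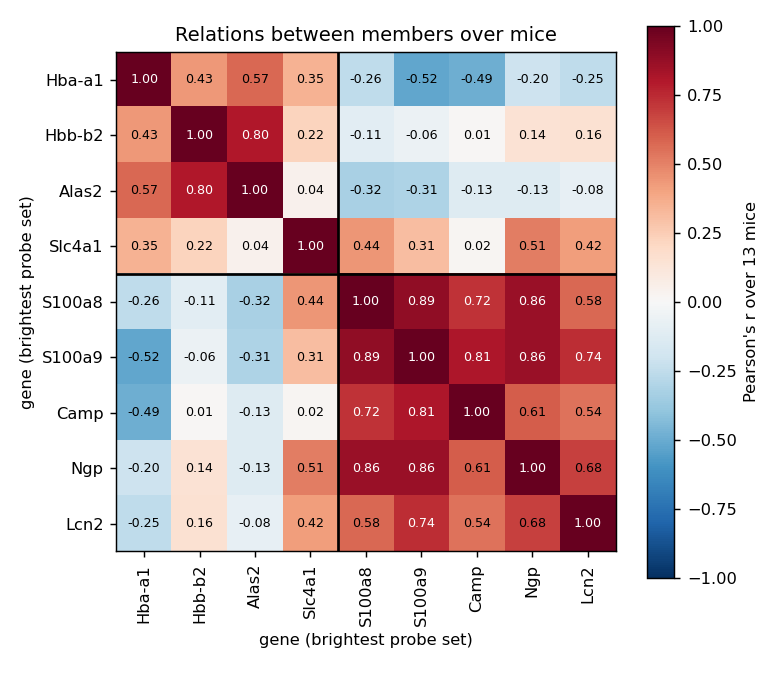
Pearson's r over the 13 mice between the 9 measured members at their brightest probe sets (rows and columns; colour scale from -1 to 1). The neutrophil block at the lower right holds r from 0.544 to 0.885, and the 20 pairs across cell types have a median of -0.0954.

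Genes outside the 10 with the most similar course over mice were ranked by r of deviations from the group means, over 12357 genes not dim in every mouse. As the top of so many, their r is a description. Closest to Hbb-b2 was Tent5c, an RNA poly(A) polymerase of the list of other red blood cell genes, with r = 0.952. It read 39 to 72 in creatine-fed mice and 18 to 75 in untreated mice, lowest in untreated mouse 1, as Hbb-b2 was at 1427866_x_at but not at 1427865_at. Ceacam1 (0.879), the protein kinase C gene Prkcd (0.875), Mgat4c (0.852), the RNA sensor Ddx58 (0.849) and Med18 of the Mediator complex (0.844) followed.

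Closest to Alas2 were the semaphorin and VEGF receptor Nrp1 (r = 0.952), Decr2 of peroxisomal fatty acid oxidation (0.851), Astn2 (0.835), the interferon-induced Rsad2 (0.811), Ccni (0.804) and Klhdc4 (0.80). Closest to S100a9 were the neuronal adhesion protein Lsamp (0.876), the peptidase Enpep (0.870), Alkbh1 (0.868), Aspa (0.864) and Fa2h (0.841), enzymes of oligodendrocytes, and Ccdc166 (0.848). At r of at least 0.8 there were 6 genes for Alas2 (0.0486% of 12357), and 11 each for S100a9 and Hbb-b2 (0.0890%). With negative r of at least that size there were 16 for Alas2, 7 for S100a9 and 11 for Hbb-b2. None of these 18 named genes passed limma's test between the groups at an adjusted p under 0.05 (lowest 0.269).

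Other genes of the same cells were read from lists, each at its brightest probe set, with 0 passing at an adjusted p under 0.05 by limma in every list. Of 48 other red blood cell genes 39 were measured, 12 with higher and 27 with lower means in creatine-fed mice and a median log2 difference of -0.11, against 7552 higher and 10641 lower of 18193 genes and a median of -0.03. At an unadjusted p under 0.05, 1 was higher and 6 were lower, where 4.17% of all probe sets were higher and 7.7% lower. The groups did not overlap for 1 gene, where 0.56% of all probe sets had such groups. This was Tfrc, at 583 to 654 in creatine-fed and 656 to 764 in untreated mice (-0.15, limma adjusted p = 0.325). Ypel4, a gene of late red cell precursors and brain, averaged 251 ± 30.8 in creatine-fed and 308 ± 28.0 in untreated mice (-0.28, adjusted p = 0.244). Of the 39, 17 lay under the array median in every mouse, where 41.2% of all probe sets did. Among the 17 were the defining markers Rhag of the red cell membrane (1 to 9 over all mice) and Gata1 (14 to 33). Klf1 read 19 to 47, under it in 12 of 13. Other genes of the list, named after their values were seen, were under it in no mouse, such as Epor (59 to 104), Tfr2 (50 to 97) and Tfrc. Of 10 haem enzymes and transporters shared with other cells, 5 had higher and 5 lower means.

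Of 52 other neutrophil genes 44 were measured, 10 with higher and 34 with lower means, and a median of -0.10. At an unadjusted p under 0.05, 6 were lower and 0 higher, where 7.7% of all probe sets were lower and 4.17% higher. Among the 6 was Trem3, a receptor of myeloid cells, at 18.5 ± 5.43 in creatine-fed and 29.1 ± 5.82 in untreated mice (-0.39, limma adjusted p = 0.215). The array medians lay above 32 of the 44 in every mouse, the primary granule genes Elane (3 to 34), Mpo (6 to 26) and Prtn3 (6 to 32) among them. Ltf, lactoferrin of the secondary granules, was highest in untreated mice 7 and 5, at 53 and 48, with 46 in creatine-fed mouse 6 next. Wfdc21 was also highest in untreated mice 7 and 5, at 42 and 25, and the lysozyme gene Lyz2 in untreated mice 5 and 7, at 106 and 98. With Clec4d these made 4 of the 44 genes with untreated mice 5 and 7 on top, and they were named after their values were seen. Prtn3 had the same mice lowest, at 6 and 7. The same mice were on top for 1 of 39 other red blood cell genes (Cd24a) and 1 of 11 microglial markers (Aif1). They were also on top for 1 of 7 monocyte markers (Plac8) and 1 of 11 markers of bone and dividing marrow cells (Mki67). Platelet, lymphocyte, endothelial and mural, choroid plexus, reactive astrocyte and haem enzyme lists held 0. The share over all genes was not computed. Deviations from the group means correlated with those of S100a9 at r above 0 for 28 of the 44 genes and below 0 for 16, with a median of 0.0884. Summed over the 44, intensity was 997 to 1227 in creatine-fed and 1093 to 1349 in untreated mice. The sums were 1339 to 1349 in untreated mice 5 and 7 and 997 to 1289 in the other 11 mice. Bright genes weigh most in such sums, and most of the 44 were dim. Serpinb1a read 213 and 154 in untreated mice 5 and 7, against at most 186 in the other 11. Mgst1 read 204 and 194, against at most 209.

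Markers of other cells that blood or its vessels could bring were counted beside these. Platelet markers had 6 higher and 6 lower means of 12 measured, with summed intensity of 242 to 484 in creatine-fed and 335 to 434 in untreated mice. Lymphocyte markers had 3 higher and 14 lower of 17, summed to 207 to 256 in creatine-fed and 272 to 343 in untreated mice, which do not overlap. None of the 17 by itself had groups that did not overlap. The sums of every other list overlapped between the groups, and the separation here was not tested. Of these 17, 15 lay under the array median in every mouse. The part of the shift of dim probe sets given above in their lower means was not tested. Ighm, the heavy chain of IgM, lay above the array median in every mouse. It averaged 73.2 ± 8.95 in creatine-fed and 90.3 ± 8.60 in untreated mice (-0.26, limma adjusted p = 0.247). Monocyte markers had 2 higher and 5 lower means of 7.

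Endothelial and mural markers had 11 higher and 10 lower means of 21, and a summed intensity of 5105 to 5669 in creatine-fed and 5122 to 5577 in untreated mice. At an unadjusted p under 0.05, 2 were higher and 1 lower, where 4.17% of all probe sets were higher and 7.7% lower. Among them were Acta2 of smooth muscle (484.5 ± 88.9 in creatine-fed and 370 ± 20.8 in untreated mice, log2 difference 0.36, limma adjusted p = 0.221) and the transporter Slco1a4 (-0.18, adjusted p = 0.284). Choroid plexus markers summed to 6027 to 9758 in creatine-fed and 4982 to 11809 in untreated mice, with 3 higher and 8 lower means of 11. Their most abundant gene, Ttr, the carrier of thyroid hormone, was highest in untreated mouse 7, at 11227.

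Markers of reactive astrocytes, a further source of Lcn2, had 6 higher and 8 lower means of 14. Socs3, an inhibitor of cytokine signalling, averaged 20.8 ± 12.9 in creatine-fed and 45 ± 9.92 in untreated mice (log2 difference -0.80, limma adjusted p = 0.199). None of the 14 had untreated mice 5 and 7 as the 2 highest or the 2 lowest mice, and r of deviations with S100a9 was above 0 for 7 and below 0 for 7. Gfap, the astrocyte filament, was highest of all 13 mice in untreated mouse 7, at 761, and read 658 in untreated mouse 5 (r = 0.42 with S100a9). Microglial markers had 10 higher means of 11 (median 0.08). Markers of bone and dividing marrow cells had 6 higher and 5 lower of 11, summed to 333 to 454 in creatine-fed and 372 to 450 in untreated mice, with 372 in untreated mouse 5, the lowest of its group, and 449 in untreated mouse 7.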

How the data were processed

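The deposited table holds 1 intensity per probe set and array, on a linear scale in whole numbers, for 45101 probe sets. Per the submitters' processing notes the tool was RMA, which returns log2 values, so the intensities the authors deposited contradict it; each array has the same mean after trimming 2% at each end (150.05), the form of a global scaling. The scaling tool is not given in the sources used here. Log2(intensity + 16) entered a limma 3.58.1 model of group alone (lmFit and eBayes, R 4.3.3), 2-sided, with Benjamini-Hochberg adjustment over 45037 probe sets (64 controls left out) and a threshold of 0.05. No filter on dim probe sets was applied, and the files give no detection calls. Symbols came from the platform annotation, updated through Entrez IDs (34741 of 34945 single-symbol probe sets).

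Relations over mice used 100000 permutations in numpy 2.4.6; 36 pairs were compared in place of the 45 planned, since Hbb-b1 had no probe set. The fits were tested on simulated data. Members and lists were chosen with earlier results of these data known. Named are all member probe sets, the 6 most similar genes for Alas2, S100a9 and the brighter Hbb-b2 probe set, and up to 3 genes per list with the smallest p, besides defining markers and genes said to be picked later. The labels call the arrays biological replicates. The replicate numbers shared between groups were not taken as pairs. Deviations of same-numbered arrays correlated from -0.0552 to 0.146, within the -0.203 to 0.207 of different-numbered arrays. So few pairs cannot exclude a pairing of the mice. Precision is bounded by how few arrays there are. Matplotlib 3.10.9 drew the figures.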

Additional observations from a re-analysis of the deposited data

Results flagged for a closer look

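In 2 of 32 groups tested, 1 mouse stood far from the rest of its group on the log2 scale. S100a9 read 50 in creatine-fed mouse 5, against 23 to 31 in the other creatine-fed mice. Slc4a1 at 1431743_a_at read 7 in creatine-fed mouse 2, against 1 or 2 in the others, all of them dim. Chance flags about 1 in 20 groups.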

How the results depend on the processing

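The count of member probe sets past the threshold was 0 under every alternative run, with a lowest adjusted p of 0.120 (S100a8 among the 22518 brighter probe sets) and 0.311 with the replicate number as a block. Of 280 member differences under an alternative, 265 kept their sign and 15 turned. Sizes of dim genes moved by over 1.5 times with the offset: at offsets of 1 and 50, Hba-a1 was -0.93 and -0.14, Lcn2 -0.99 and -0.14, Camp -0.65 and -0.20, and Slc4a1 at 1416464_at -0.65 and -0.17. Without untreated mouse 4 Hba-a1 was -0.20, and without untreated mouse 5 S100a9 was -0.40, Ngp -0.36 and Camp -0.16, while Camp was -0.20 without untreated mouse 7. With 1 mouse left out, Hbb-b2 ranged from -0.0856 to 0.133 at 1427866_x_at and from -0.0236 to 0.244 at 1427865_at, Alas2 from -0.0432 to 0.287, and Slc4a1 at 1434502_x_at from -0.0832 to 0.0613. Slc4a1 at 1434502_x_at was 0.0144 after quantile normalization, 0.0320 after centring on the median and 0.0179 without untreated mice 5 and 7, and Camp was 0.0855 without them. Of the 8 pairs of members that passed, 5 did with an offset of 1 in place of 16 and 1 by Spearman; leaving out 1 mouse gave 0 to 8, with 0 without untreated replicate 5 and 4 without untreated replicate 7, and 0 without both, while deviations from the group means gave 11, 3 of them across cell types. Over the whole array 4 probe sets passed, and 0 did with the mean of the red blood cell members, of the neutrophil members or of the shared globin probe sets as a covariate; the cause was not tested. Leaving out untreated mice 5 and 7 together, the shared globin covariate, the dimmer Hbb-b2 probe set, Spearman and deviations were chosen after the data were seen.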
